A study of Mus musculus with 6 samples.

Results

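The nuclear-encoded subunits of the mitochondrial respiratory chain and ATP synthase were examined in liver of mice on a Western diet, with and without the thrombin inhibitor dabigatran. Members were chosen by gene symbol, as every name that begins with Ndufa, Ndufb, Ndufc, Ndufs or Ndufv and a number, with Uqcr, with Cox4 to Cox8 or with Atp5, together with Sdha to Sdhd. The rule took 85 of the 23291 genes in the tables, and the rule uses names only. Of these, 82 encode subunits: 35 of complex I, 4 of complex II, 8 of complex III, 20 of complex IV and 15 of complex V. Ndufa4, once counted in complex I, and its relative Ndufa4l2 were placed with complex IV. The supercomplex factor Cox7a2l was kept with complex IV as well. The other 3, Cox4nb, Atp5s and Atp5sl, share the name pattern without being subunits and are described apart.

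All mice were C57BL/6. Diet libraries came from mice kept for 3 months on a Western (high fat) diet, and dabigatran libraries from mice kept as long on that diet with 10 mg/g dabigatran etexilate added, the oral prodrug of dabigatran. RNA came from snap frozen liver, the design text gives 3 mice per group, and the labels state neither age nor sex. Both groups ate the Western diet, so the comparison holds no lean control, and whole liver mixes hepatocytes with other cells. The dabigatran tables labelled replicates 0 and 1 held identical values and were counted once, as dabigatran replicate 1, which leaves 3 diet and 2 dabigatran libraries. Values are FPKM, which count fragments relative to gene length and library total, and differences are on the log2(FPKM + 0.5) scale.

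The respiratory chain passes electrons from NADH (complex I) and succinate (complex II) through ubiquinone to complex III and, by cytochrome c, to complex IV, where oxygen is reduced. Complexes I, III and IV pump protons across the inner mitochondrial membrane, and complex V uses the gradient to make ATP. In liver this output supports glucose and urea synthesis and is fed to a large extent by fatty acid oxidation. Most subunits are encoded in the nucleus and imported. The subunits encoded by mitochondrial DNA were not analysed here.

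The promoters of these genes are known for sites of NRF1, ETS-family factors such as GABP, YY1 and the estrogen-related receptors (ERR). Promoter sequence from RefSeq (GRCm38.p6), from 250 bases before to 50 bases after the start, was found for 66 of the 82 subunit genes and was searched on both strands. The letters searched were GCATGCGC for NRF1, CCGGAAG for ETS, AAGATGGC for YY1 and CAAGGTCA for ERR. The NRF1 letters can match both strands at overlapping positions. At least 1 of these was present for 31 of 66 subunit genes (47.0%), against 30.3% of 7416 other tested genes with a promoter of the same length. NRF1 letters were in 15.2% of subunit promoters against 6.11%, ETS letters in 24.2% against 20.9%, YY1 letters in 13.6% against 5.58% and ERR letters in 6.06% against 1.27%. A match describes the letters and is neither a bound site nor a cause of any value. Upstream sequence without exon bases is shown for 4 subunits of complexes I, III, IV and V, because each carries 1 of these letter strings in capitals on its minus-strand gene. Ndufb6 (chr4:40279422-40279671) and Uqcr11 (chr10:80406831-80407071) carry ETS letters, Cox6a1 (chr5:115348982-115349129) carries NRF1 letters that match on both strands at overlapping positions, and Atp5g3 (chr2:73911327-73911576) carries ERR letters. All are written 5′ to 3′ in the direction of the gene.
Ndufb6: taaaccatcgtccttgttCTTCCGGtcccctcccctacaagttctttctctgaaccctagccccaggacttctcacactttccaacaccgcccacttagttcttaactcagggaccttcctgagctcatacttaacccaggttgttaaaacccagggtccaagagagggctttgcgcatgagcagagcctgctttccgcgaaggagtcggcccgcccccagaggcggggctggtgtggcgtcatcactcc
Uqcr11: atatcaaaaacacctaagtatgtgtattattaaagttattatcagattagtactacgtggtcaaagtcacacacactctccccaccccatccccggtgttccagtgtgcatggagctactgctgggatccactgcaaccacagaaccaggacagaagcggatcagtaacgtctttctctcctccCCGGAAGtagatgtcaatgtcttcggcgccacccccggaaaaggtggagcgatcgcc
Cox6a1: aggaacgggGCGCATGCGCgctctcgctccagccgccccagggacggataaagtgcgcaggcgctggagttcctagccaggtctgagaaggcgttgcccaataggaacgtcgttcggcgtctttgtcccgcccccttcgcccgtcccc
Atp5g3: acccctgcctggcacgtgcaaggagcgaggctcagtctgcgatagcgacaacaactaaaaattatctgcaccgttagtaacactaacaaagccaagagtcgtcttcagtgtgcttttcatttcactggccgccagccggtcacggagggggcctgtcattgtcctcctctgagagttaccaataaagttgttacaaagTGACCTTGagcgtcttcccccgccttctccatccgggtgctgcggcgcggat

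The relative depth of the libraries, read from the steps of low values, lay between 0.761 and 1 of that of diet replicate 0. The smallest whole fragment numbers behind a subunit value ran from 10 to 1148, for the 65 tested subunits where they could be recovered. True numbers can be a multiple of these, and counting error alone is covered by them. Over the 10247 tested genes, those that reached 1 FPKM in 3 or more of the 5 libraries, limma with Benjamini-Hochberg adjustment called 13 higher and 31 lower in the dabigatran group at an adjusted p of 0.05 (0.429% of the tested genes). Hepatocyte markers checked the tissue: their summed FPKM was 27631 to 30348 in the diet libraries, and 30479 and 43321 in the dabigatran libraries. The single markers did not move together. Ttr lay lower without overlap (1849 to 2945 against 1707 and 1518). Apoa1, Cps1, Fah, Hnf4a and Tat lay higher without overlap, and Alb and Apob overlapped. Adipocyte markers (3 of 4 at 0 in every library, summed level at most 0.320) and striated muscle markers (3 of 6 at 0, at most 0.892) were close to absent.

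No subunit gene was called different between the groups. Of the 82 subunits, 73 passed the filter on low values, and the lowest adjusted p among them was 0.175 (limma, Benjamini-Hochberg), for Ndufs7. At an unadjusted p under 0.05, there were 4 of the 73, Ndufs7 higher and Ndufs6, Ndufv3 and Uqcr11 lower, against 16.0% of all tested genes and 28.6% of the 1072 tested genes at 50 FPKM or more. The median difference of the subunits was −0.07, against 0.02 for all tested genes and −0.02 for the genes at 50 FPKM or more. Differences ran from −0.53 to 0.60, with 48 of 73 below and 25 above 0. Of all tested genes 4932 of 10247 lay below 0, as did 556 of the 1072 at 50 FPKM or more. The 95% interval of the difference lay within 1 log2 unit of 0 for 71 of 73 subunits (97.3%), against 58.8% of all tested genes and 72.7% of those at 50 FPKM or more. P-values measure only the spread between these samples, and with 3 and 2 libraries they cannot show that the groups act alike. In bulk liver, fewer cells of a type and less RNA per cell cannot be told apart.

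**Figure D1:**
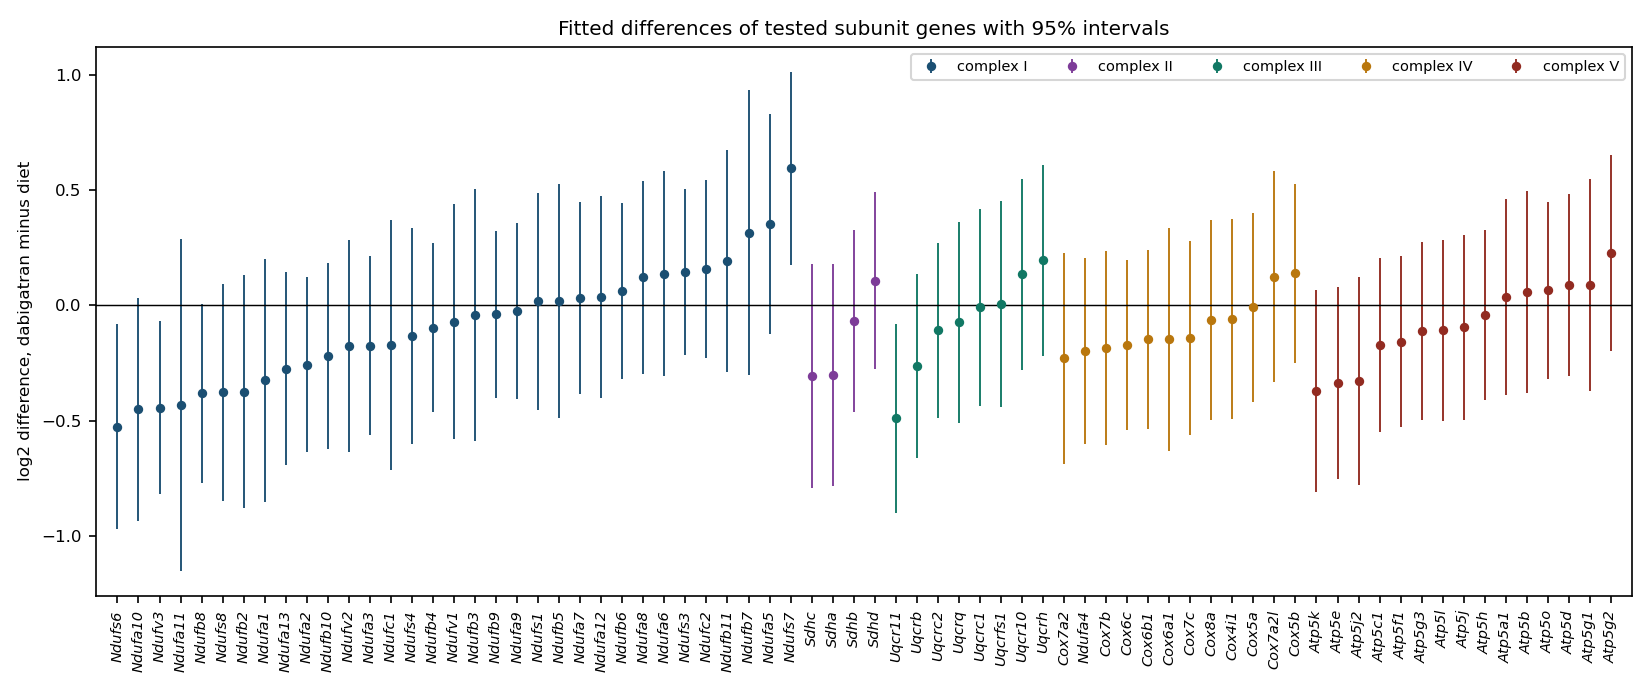
Fitted log2 difference (dabigatran minus diet, y axis) of 72 of the 73 tested subunit genes (x axis), ordered within complexes I to V, with bars for the 95% interval of limma. The points lie between −0.53 (Ndufs6) and 0.60 (Ndufs7), and 70 of the 72 intervals stay within 1 log2 unit of 0.

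On the deposited scale, the subunits of dabigatran replicate 1 lay below those of replicate 2 by more than the groups differed, with medians of −0.25 between these libraries and −0.07 between the groups. Scaled to summed FPKM, a choice made after seeing the data, these medians were −0.13 and −0.16, so this order depends on the scaling. As deposited, dabigatran replicate 1 held the lowest of the 5 values for 47 of 73 subunits (64.4%), against 18.0% of all tested genes and 22.9% of those at 50 FPKM or more. It lay below every diet library for 50 subunits (68.5%, against 28.9% of all tested genes and 40.5% of those at 50 FPKM or more). Dabigatran replicate 2 lay below every diet library for 18 subunits (24.7%). The same held for 31.5% of all tested genes and 35.6% of those at 50 FPKM or more. It lay above every diet library for 26 subunits and within their range for 29, against 3520 and 3500 of the 10247 tested genes. Replicate 1 was below replicate 2 for 64 of 73 subunits, 87.7% against 52.9% of all tested genes and 61.7% of those at 50 FPKM or more. The median distance of a library's subunits from the diet mean was −0.02, 0.00 and 0.06 log2 units in diet replicates 0, 1 and 2, −0.21 in dabigatran replicate 1 and 0.03 in dabigatran replicate 2. The median difference between the groups was therefore 0.03 without dabigatran replicate 1 and −0.21 without dabigatran replicate 2.

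The low values in dabigatran replicate 1 were found in all 5 complexes. They were less marked in the quinone module of complex I, where the median distance from the diet mean was 0.04. There this library was the lowest for 1 of 6 subunits and below every diet library for 2 (33.3%, against 28.9% of all tested genes). By complex, its median distance from the diet mean was −0.25 for complex I, −0.35 for complex II, −0.21 for complex III, −0.20 for complex IV and −0.18 for complex V. In dabigatran replicate 2 the same medians were 0.04, 0.03, 0.13, −0.00 and 0.02. Summed over the 73 tested subunits, FPKM was 12907, 13157 and 13652 in the diet libraries, 11396 in dabigatran replicate 1 and 13234 in dabigatran replicate 2. The summed FPKM of all genes also differed, from 423726 to 462884 in the diet libraries, with 453689 in dabigatran replicate 1 and 492755 in dabigatran replicate 2. As a share of that total, all 82 subunits, untested ones such as Ndufs5 included, made up 2.84% to 3.06% in the diet libraries. In the dabigatran libraries they made up 2.51% and 2.69%, so that the shares of the groups did not overlap. With each library scaled to its summed FPKM, 57 of 73 subunits had a difference below 0 and the median was −0.16, against −0.06 for all tested genes, with none called. On that scale dabigatran replicate 1 was the lowest library for 40 subunits (54.8%), against 16.0% of all tested genes, and replicate 2 for 11, against 4 as deposited. Replicate 1 was then below replicate 2 for 54 subunits, 74.0% against 43.2% of all tested genes, and the median distances from the diet mean were −0.23 and −0.11. Neutrophil markers summed to 40.8 FPKM in dabigatran replicate 1, against 1.86 to 19.1 in the diet libraries and 1.84 in dabigatran replicate 2. Sinusoidal endothelial markers summed to 29.7 to 35.7 FPKM in the diet libraries, and to 46.7 and 56.2 in the dabigatran libraries. Stellate cell markers summed to 9.90 to 11.2 and to 7.66 and 8.68. For both cell types, as for hepatocytes, the summed values of the groups did not overlap, and no marker was called. Among the stellate markers only Lrat was itself without overlap, at 5.39 to 7.05 against 5.19 and 4.97. The low values of Des, Col1a1 and Pdgfrb overlapped. The part of these cell types in the subunit values was not tested.

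**Figure D2:**
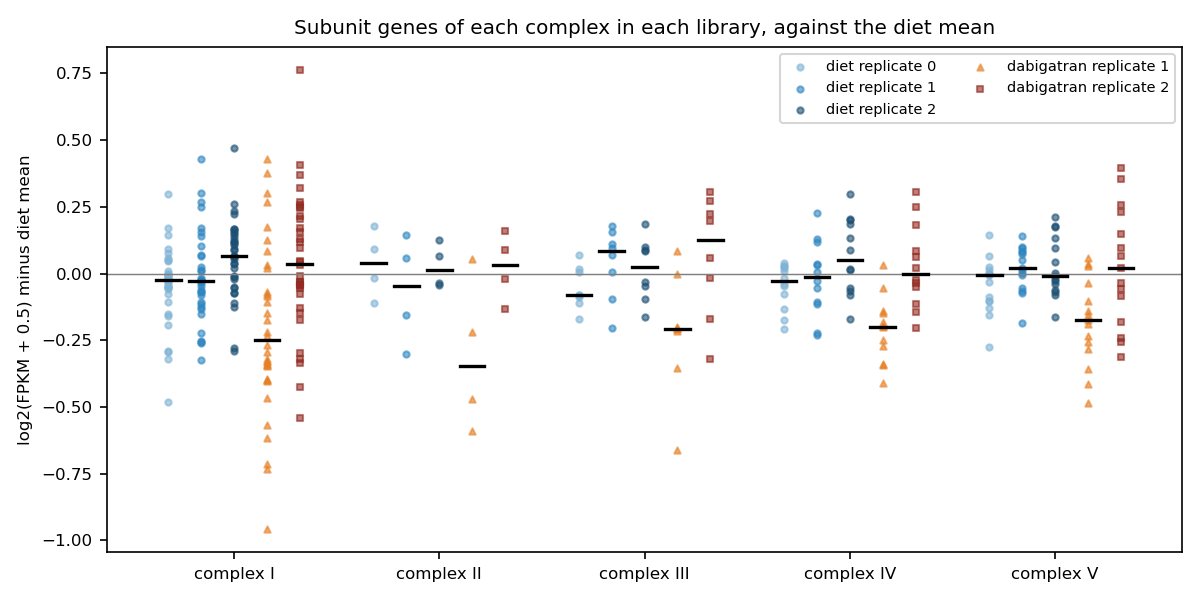
Distance of each tested subunit gene from its diet mean (y axis, log2(FPKM + 0.5)) by complex (x axis) in the 5 libraries, with black bars for the medians. Triangles of dabigatran replicate 1 center on −0.18 to −0.35 in the 5 complexes, and squares of dabigatran replicate 2 on −0.00 to 0.13.

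**Figure D3:**
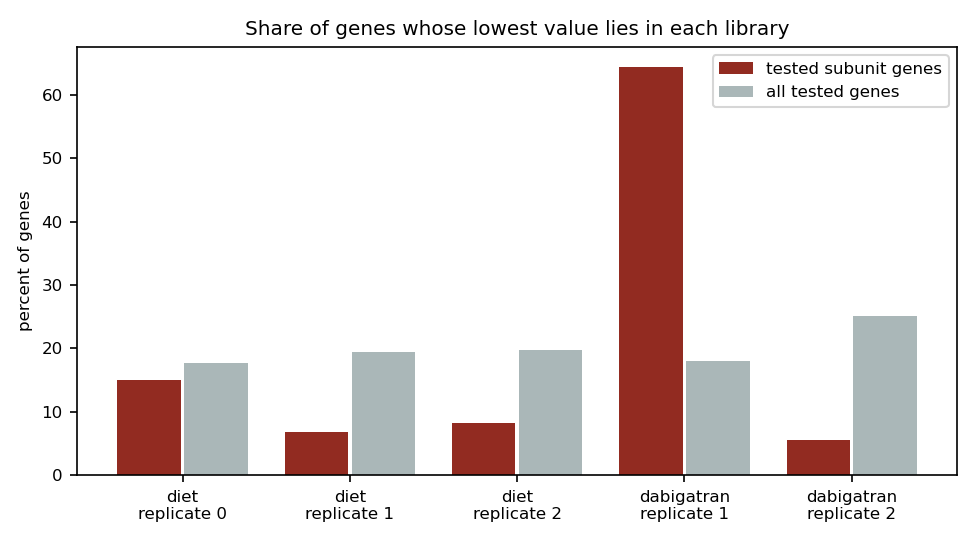
Percent of genes (y axis) whose lowest value lies in each library (x axis), for the 73 tested subunits and all 10247 tested genes. Dabigatran replicate 1 holds 64.4% of the subunits' lowest values and 18.0% of those of all tested genes.

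Groups did not overlap for 19 subunits. Both dabigatran libraries lay below all diet libraries for 17 (17.2% of all tested genes did so) and above them for 2, Ndufs3 and Ndufs7 (17.2% of all tested genes). The 17 lower ones were 8 of complex I, 2 of complex III, 2 of complex IV and 5 of complex V: Ndufa2, Ndufa3, Ndufa10, Ndufa13, Ndufb8, Ndufs6, Ndufs8, Ndufv3, Uqcr11, Uqcrb, Cox6c, Ndufa4, Atp5c1, Atp5e, Atp5f1, Atp5g3 and Atp5k. As a share of the 73 tested subunits this was 23.3% lower and 2.74% higher. Among the 17, Ndufa13 (28.5%), Uqcrb (43.4%) and Atp5f1 (38.7%) have over 20% of their windows of 50 bases shared with other genes. Of the 1072 tested genes at 50 FPKM or more, 297 lay lower and 204 higher without overlap. The lower share of the subunits was therefore above that of all tested genes but not above that of genes at this level. Scaled to summed FPKM the counts became 28 lower and 2 higher, with 20.3% and 13.6% of all tested genes as background. The share of genes at 50 FPKM or more was not taken on that scale, so the same comparison by level cannot be made there.

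Complex I, the NADH:ubiquinone oxidoreductase, has a matrix arm with an NADH oxidation module and a quinone module, and a membrane arm that pumps protons. Its 34 tested subunits had a median level of 81.2 FPKM over the 5 libraries, the lowest of the complexes. The median difference was −0.07, with 21 below and 13 above 0. By module, the medians were −0.10 for the 10 NADH oxidation subunits, 0.06 for the 6 quinone module subunits and −0.13 for the 18 tested membrane arm subunits.

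Ndufs7 (chr10:80249121-80256794, plus strand, GRCm38), an iron-sulfur subunit next to the quinone site, was listed at 35.3, 38.7 and 34.2 FPKM in diet replicates 0, 1 and 2 and at 48.7 and 61.5 in dabigatran replicates 1 and 2. Both dabigatran values lay above all diet values, 55.1 ± 9.05 (SD, n = 2) against 36.1 ± 2.37 (n = 3). Its difference of 0.60 ± 0.18 (SE) was the largest positive one among the subunits, with a 95% interval of 0.18 to 1.01 and an adjusted p of 0.175 (limma). It rested on at least 41 to 66 recovered fragments per library. Among its neighbours in the quinone module, Ndufs3 read 73.4, 77.3 and 77.1 FPKM in the diet libraries and 85.7 and 82.5 in the dabigatran libraries, also without overlap. Its windows of 50 bases were to 39.7% shared with other genes, so its reads are uncertain. Ndufs8, a further iron-sulfur subunit of the module, pointed the other way, at 28.3, 36.4 and 40.6 against 27.5 and 25.8.

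Ndufs6 (chr13:73319838-73328542, minus strand), a zinc-binding accessory subunit of the NADH oxidation module, was listed at 96.8, 89.6 and 110 FPKM in the diet libraries and at 59.0 and 78.7 in the dabigatran libraries. The groups did not overlap. Its difference of −0.53 ± 0.19 was the lowest of all subunits (interval −0.97 to −0.08, adjusted p = 0.244, limma). Its exons overlap Mrpl36 on the opposite strand, and it is not known whether counting used strand. Ndufv3 (chr17:31520115-31531331, plus strand), an accessory subunit of the flavoprotein fraction, read 108, 107 and 115 FPKM against 86.4 and 75.4, with dabigatran replicate 2 below replicate 1. The difference was −0.44 ± 0.16 (adjusted p = 0.245). The catalytic flavoprotein Ndufv1, which binds NADH, lay at 56.4, 47.1 and 67.7 against 45.9 and 62.9. Ndufs1, the largest iron-sulfur subunit, lay at 36.7, 35.9 and 41.7 against 32.2 and 46.0. For both, the difference was close to 0 (−0.07 and 0.02), with intervals of −0.58 to 0.44 and −0.45 to 0.49.

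In the membrane arm, Ndufb8 (chr19:44548572-44555440, minus strand), an accessory subunit often used as a marker of assembled complex I, was listed at 107, 97.3 and 115 FPKM in the diet libraries and at 76.8 and 86.4 in the dabigatran libraries. The groups did not overlap, and the difference was −0.38 ± 0.17 (interval −0.77 to 0.01, adjusted p = 0.321, limma). Ndufa10, an accessory subunit of the same arm, read 102, 76.2 and 113 against 64.4 and 75.6, where dabigatran replicate 2 almost met the lowest diet value. Ndufa11, a membrane arm subunit, was the least abundant tested subunit, at 7.61 to 8.04 FPKM in the diet libraries and 3.75 and 8.33 in the dabigatran libraries. It rested on 10 to 25 recovered fragments and had the widest interval of the 73, −1.15 to 0.29. Ndufs5 was not tested: it was listed at 36.4, 0 and 79.5 in the diet libraries and at 0 in both dabigatran libraries. Of its windows, 31.1% are shared with BC002163, and such a 0 can be a failed estimate, so no fold is given.

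**Figure D4:**
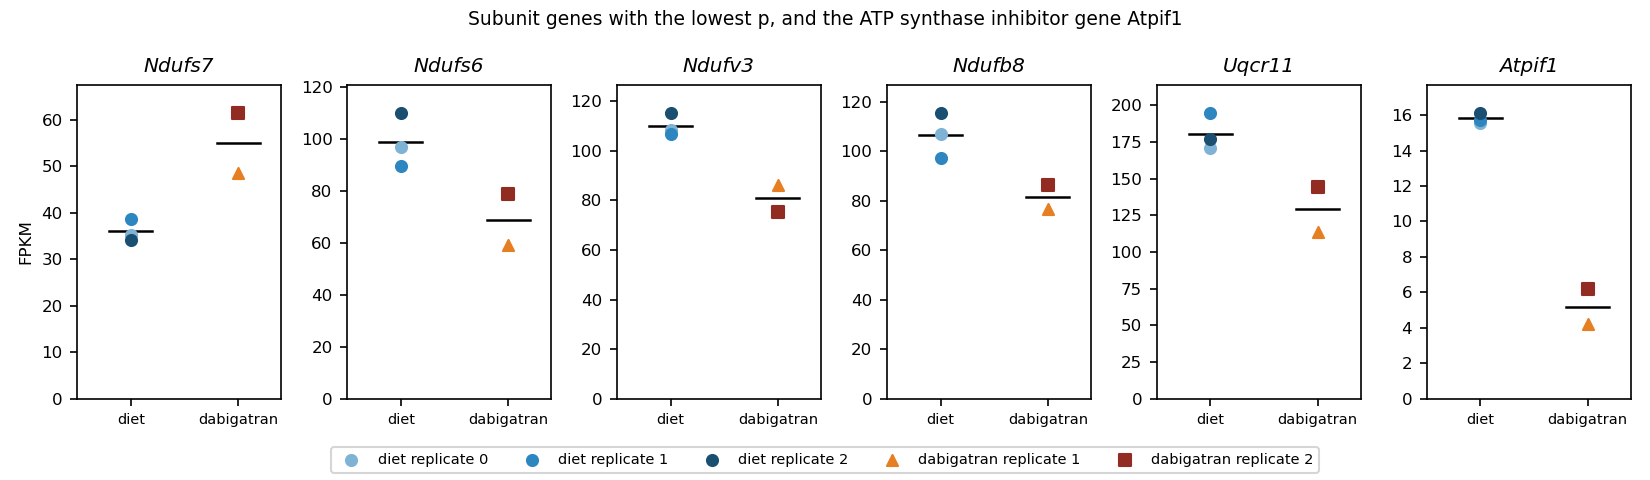
FPKM (y axis, from 0) of the 5 subunit genes with the lowest p and of Atpif1 in the diet and dabigatran groups, with 1 point per library and black bars for group means. The groups do not overlap in any of the 6 panels, and Atpif1, at 15.6 to 16.1 against 4.19 and 6.21, is the 1 gene with an adjusted p under 0.05.

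Complex II, succinate dehydrogenase, also belongs to the citric acid cycle and is encoded wholly in the nucleus. The flavoprotein Sdha, which oxidizes succinate, was listed at 171, 123 and 165 FPKM in the diet libraries and at 109 and 138 in the dabigatran libraries. The membrane anchor Sdhc read 128, 108 and 126 against 79.7 and 119. In both, dabigatran replicate 1 was the lowest library and replicate 2 lay inside the diet range. Their differences were −0.30 ± 0.21 and −0.31 ± 0.21, with adjusted p of 0.521 and 0.518 (limma). The iron-sulfur subunit Sdhb lay at 150, 158 and 147 against 130 and 161. The second anchor, Sdhd, lay at 119, 142 and 126 against 133 and 144, with dabigatran replicate 1 inside the diet range. Sdha had the most recovered fragments of any tested subunit, 627 to 1148, so its counting error (an SE of 0.05 for the difference) was small beside the SE of the fit (0.21).

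Complex III, the cytochrome bc1 complex, passes electrons from ubiquinol to cytochrome c. Uqcr11 (chr10:80402997-80406830, minus strand), a small accessory subunit and 1 of the genes whose upstream sequence is shown, was listed at 171, 195 and 177 FPKM in the diet libraries and at 114 and 145 in the dabigatran libraries. The groups did not overlap, and the difference was −0.49 ± 0.18 (interval −0.90 to −0.08, adjusted p = 0.241, limma). Uqcrb, a ubiquinone-binding subunit, read 238, 286 and 249 against 201 and 228, also without overlap, but 43.4% of its windows are shared with other genes. The hinge protein Uqcrh lay at 303, 362 and 300 against 339 and 396, and Uqcr10 at 135, 159 and 162 against 151 and 183. In both, replicate 2 of the dabigatran group was the highest library. The core protein Uqcrc1 lay at 94.6, 88.1 and 100 against 81.1 and 108, and the Rieske iron-sulfur protein Uqcrfs1 at 124, 127 and 106 against 103 and 138. In both, the dabigatran libraries were the lowest and the highest of the 5. Cytochrome c1, encoded by Cyc1 and outside the naming rule, was at 91.3, 90.5 and 104 against 96.7 and 99.6.

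Complex IV, cytochrome c oxidase, has a catalytic core from mitochondrial DNA that is surrounded by nuclear subunits. Its 12 tested subunits had a median level of 262 FPKM, and 10 of the 12 had a difference below 0, with a median of −0.14. Ndufa4 was the most abundant of all subunits, at 772, 861 and 751 FPKM in the diet libraries and 667 and 717 in the dabigatran libraries. Cox6c read 336, 355 and 351 against 315 and 301. These were the complex IV members whose groups did not overlap, with differences of −0.20 ± 0.17 and −0.17 ± 0.16. Cox7a2, the liver form of its subunit, had the lowest p of the complex and lay at 111, 129 and 148 against 96.4 and 124 (difference −0.23 ± 0.20, adjusted p = 0.608, limma). Cox7b, a small structural subunit, lay at 116, 123 and 100 against 88.9 and 110. Cox4i1, which takes part in regulation by ATP, lay at 375, 396 and 468 against 358 and 436. Cox5a lay at 203, 198 and 204 against 176 and 229, and Cox5b at 185, 169 and 193 against 186 and 216. For Cox4i1 and Cox5a the intervals were −0.49 to 0.38 and −0.42 to 0.40.

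Subunits of complex IV have tissue-specific forms, and the values listed for each set were nearly all those of the liver form. A value listed at 0 can be a failed estimate, as for Ndufs5, so these values do not show that a form was absent. Cox4i2, the form known from lung, the muscle forms Cox6a2 and Cox8b, and Cox7b2 and Cox8c, known from testis, were listed at 0 in all 5 libraries. Cox7a1, the heart and muscle form, was listed at 2.52, 0 and 5.22 FPKM in the diet libraries and at 0 in both dabigatran libraries, at most 3.41% of the Cox7a1 and Cox7a2 sum. The testis form Cox6b2 was listed at 0.855 in diet replicate 0 and at 0 elsewhere. Ndufa4l2, a form known from hypoxia, was listed at 1.05, 0 and 0.541 against 0 and 1.59. None of these 8 entered the test, and no fold is given for them.

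Complex V, the ATP synthase, joins a catalytic F1 head to a membrane c-ring by a central and a peripheral stalk. Its 15 subunits were all tested and had a median level of 263 FPKM. Atp5k, subunit e of the membrane part, which takes part in dimer formation, was listed at 876, 697 and 817 FPKM in the diet libraries and at 566 and 664 in the dabigatran libraries. Atp5e, the epsilon subunit of the central stalk, read 327, 350 and 422 against 284 and 293. For these the groups did not overlap, with differences of −0.37 ± 0.19 (adjusted p = 0.386, limma) and −0.34 ± 0.18 (adjusted p = 0.407). Atp5j2, subunit f of the membrane part, lay at 235, 305 and 322 against 214 and 241. The catalytic beta subunit Atp5b lay at 485, 547 and 516 against 467 and 616, and the alpha subunit Atp5a1 at 278, 272 and 304 against 255 and 333. In both, dabigatran replicate 1 was the lowest and replicate 2 the highest library. Their differences were 0.06 and 0.04, with intervals of −0.38 to 0.50 and −0.39 to 0.46. Medians were 0.04 for the F1 head, counted with central stalk subunits such as Atp5e, −0.07 for the peripheral stalk and 0.09 for the c-ring. For the 3 small membrane subunits Atp5j2, Atp5k and Atp5l the median was −0.33, but 84.8% of the windows of Atp5l are shared with other genes.

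The c subunit of the ring is made from 3 genes with the same mature protein. Atp5g3, whose upstream sequence with ERR letters is shown, held 67.4% to 74.8% of their summed FPKM over the libraries. Atp5g2 held 14.5% to 19.4% and Atp5g1 10.7% to 13.1%. Atp5g3 was listed at 588, 578 and 567 against 507 and 564, Atp5g2 at 129, 132 and 110 against 128 and 162, and Atp5g1 at 85.9, 91.0 and 81.2 against 76.0 and 110. Dabigatran replicate 2 had the smallest Atp5g3 share and the largest Atp5g2 and Atp5g1 shares of the 5 libraries.

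**Figure D5:**
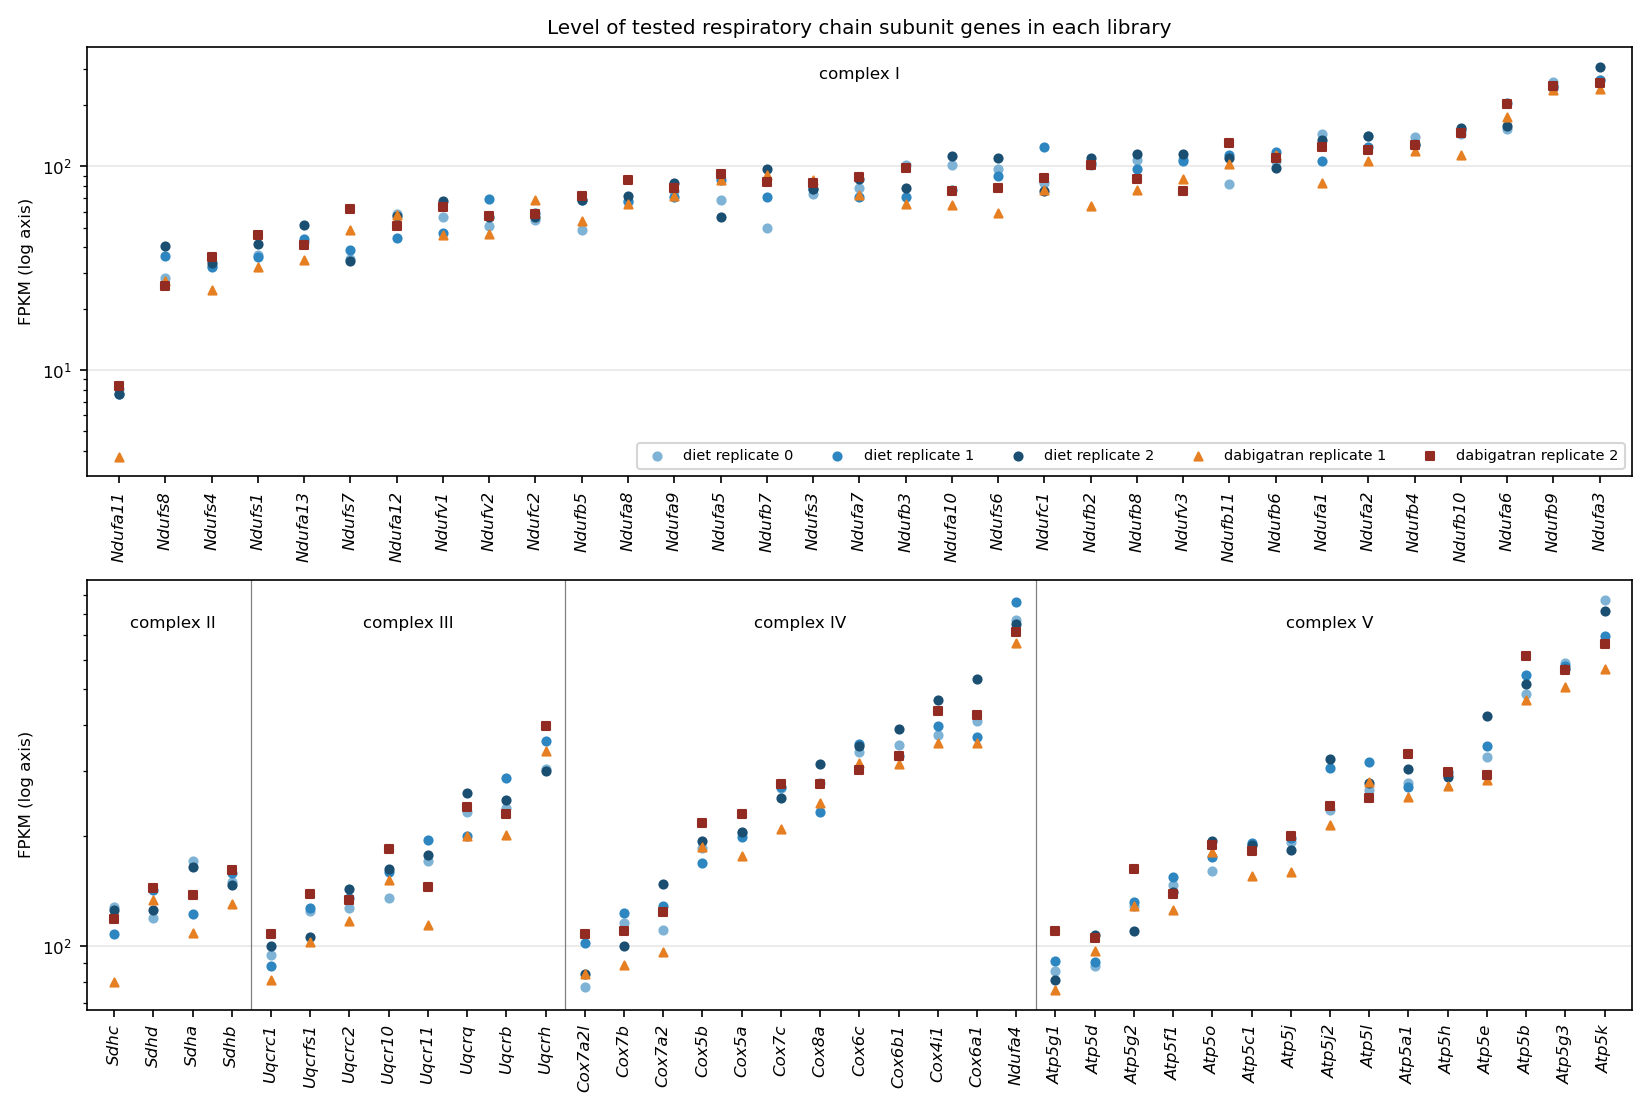
FPKM (y axis, log scale) of 72 of the 73 tested subunit genes in the 5 libraries, ordered by mean level within each complex (x axis). Levels run from Ndufa11 (mean 7.08 FPKM) to Ndufa4 (mean 754 FPKM), and the triangles of dabigatran replicate 1 are the lowest point for 46 of the 72 genes.

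The order of the levels by complex, as medians of 5-library means in FPKM, was 81.2 (I), 137 (II), 159 (III), 262 (IV) and 263 (V), with complexes IV and V at nearly the same level. The genes are short: the longest coding transcript had a median of 908 bases for the tested subunits and 3052 for 9082 other tested genes. Across the 73 subunits, mean FPKM and that length had a Spearman's rho of −0.44, against −0.29 across the other genes, and genes share these libraries and are not independent replicates. Length and the group difference had a rho of −0.02 for subunits and 0.17 for other genes. The median residual SD of the subunits was 0.17 log2 units, against 0.20 for tested genes at 50 FPKM or more. Of the 85 members, 16 had over 20% of their windows shared with other genes, and 27 overlap a gene on the opposite strand.

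Of 122 related genes tested in 12 lists, 1 was called (0.820%, against 0.429% of all tested genes). Atpif1 (chr4:132530555-132533659, minus strand), the inhibitor that binds ATP synthase when the proton gradient is lost and limits ATP hydrolysis, was listed at 15.6, 15.7 and 16.1 FPKM in the diet libraries and at 4.19 and 6.21 in the dabigatran libraries. It fell by 1.54 ± 0.22 on the log2 scale (interval −2.05 to −1.03, adjusted p = 0.040, limma), 2.91-fold lower on the log2(FPKM + 0.5) scale and down in both dabigatran libraries. The call rests on few fragments: 13, 10 and 13 in diet replicates 0, 1 and 2, then 3 and 4 for dabigatran, as the smallest whole numbers. Its adjusted p was 0.204 without diet replicate 0, 0.226 without diet replicate 2, 0.130 without dabigatran replicate 2 and 0.260 by voom on recovered fragments. The direction was the same each time, with differences of −1.28 to −1.80 over all alternatives. Its exons overlap Gm12999 on the opposite strand. Atpif1 came from a list of 5 complex V assembly and regulatory genes, and the other 4 were not called. The lists were chosen with earlier results of these data known.

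None of the assembly factors of complexes I (9 tested), II (3), III (3) and IV (13) passed the test. Their median differences were −0.34, −0.23, −0.19 and −0.12. Acn9, an assembly factor of complex II, lay at 11.6, 7.62 and 9.60 FPKM against 4.06 and 1.50 (difference −1.72 ± 0.36, adjusted p = 0.083, limma). Bcs1l, which inserts the Rieske protein into complex III, lay at 5.36, 6.40 and 5.04 against 1.70 and 2.84 (−1.16 ± 0.27, adjusted p = 0.105). In both genes each dabigatran library lay below every diet library. The citric acid cycle (14 tested, median 0.10), mitochondrial import and chaperone genes (23 tested, 0.15), transcription factors and coactivators of mitochondrial genes (13 tested, 0.26) and antioxidant enzymes (9 tested, −0.27) also held no called gene. The same was true of electron carriers and other quinone reductases (10 tested, −0.17), ubiquinone synthesis (11 tested, −0.22) and mitochondrial carriers (9 tested, −0.19). Esrra, which encodes an estrogen-related receptor, lay at 4.85, 4.08 and 6.62 FPKM against 10.6 and 9.04 (0.88 ± 0.25, adjusted p = 0.160), without overlap. Suclg2, a subunit of succinyl-CoA ligase, lay at 142, 115 and 151 against 72.7 and 77.9 (−0.84 ± 0.18, adjusted p = 0.088).

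The genes that match by name alone were low. Cox4nb, now Emc8 of the endoplasmic reticulum membrane complex, was at 3.51 to 4.76 FPKM in the diet libraries and 3.99 and 5.83 in the dabigatran libraries. Atp5s was at 3.71 to 5.28 against 3.97 and 6.00, and Atp5sl at 6.18 to 6.74 against 4.64 and 9.37. In none of them did the groups separate.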

How the data were processed

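Libraries were made from liver total RNA (TruSeq RNA kit, from the labels' protocols). Each deposited table gives 1 FPKM value per gene, per the file headers. The submitters' processing notes list Cuffdiff, TopHat, TopHat2 2.0.4, CASAVA and R 2.15.1, and the builds GRCm38 and mm10, without role or order. For the annotation, the use of strand and reads that match several genes, the authors' choices were not given in the sources used here. These values depend on the library total, so a few abundant genes can lower the others.

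The 2 identical dabigatran tables were counted once, and the test planned for 3 against 3 libraries became 3 against 2. Genes that reached 1 FPKM in 3 or more of the 5 libraries entered a test of log2(FPKM + 0.5) with limma 3.58.1 (R 4.3.3, eBayes with trend, group as the term, two-sided), adjusted by Benjamini-Hochberg over all 10247 tested genes with a threshold of 0.05. The steps were checked on simulated data. Fragments were recovered where values were whole multiples of a step of at most 1000 fragments within a relative tolerance of 2e-05, for 8260 tested genes (80.6%). Lists are described by counts and medians, with no set test. Gene positions and shared windows of 50 bases come from GENCODE on GRCm38, and 2 members were matched by an older symbol.

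Named subunits were the 4 with the lowest p and the largest differences in each complex, core subunits and isoform sets, and any others were chosen after their values were seen. Members and lists were chosen with earlier results of these data known. Alternatives were other pseudocounts, filters and scalings, no variance trend, each library left out and a replicate block. Scaling to summed FPKM and voom on recovered fragments were chosen after seeing the data. The values of 1 subunit are not reported here, though it is included in the counts and medians.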

Additional observations from a re-analysis of the deposited data

How the results depend on the processing

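No subunit was called under any of 15 alternatives. Direction was followed for 21 subunits, those with the lowest p or the largest differences in each complex, and 311 of 313 values kept it. The exceptions were Sdhb, 0.09 without dabigatran replicate 1 (−0.22 without replicate 2), and Uqcr10, −0.00 without dabigatran replicate 2 (0.27 without replicate 1). Core subunits other than Sdha and Sdhb were not followed. Over all 73 subunits direction depended on the library: 48 were below 0 in the main fit, 34 without dabigatran replicate 1 and 58 without dabigatran replicate 2. The count of called genes over the whole table, 44, was 23 with a pseudocount of 0.1, 0 without a filter on low values (1933 at an unadjusted p under 0.05), 27 with quantile normalization, 0 without the variance trend (1562 at an unadjusted p under 0.05), 11 by voom and 0 to 294 with 1 library left out. Of the single libraries, leaving out diet replicate 1 or dabigatran replicate 1 gave 294 and 275, leaving out diet replicate 0 gave 1, and leaving out diet replicate 2 or dabigatran replicate 2 gave 0. An arm of 1 library is assumed to vary like the other. Subunits whose groups did not overlap were 26.0%, and 41.1% when scaled to summed FPKM. Over all tested genes, 17.2% lay lower and 17.2% higher without overlap, and 20.3% and 13.6% on that scale, where genes at 50 FPKM or more were not counted apart. The subunit share was 32.9% to 72.6% with 1 library left out, where fewer libraries make it easier not to overlap. No share of all tested genes stands beside that range. With 1 library left out, the median difference ran from −0.21 to 0.03 over all subunits, −0.25 to 0.04 for complex I, −0.35 to 0.03 for II, −0.21 to 0.13 for III, −0.20 to −0.00 for IV and −0.18 to 0.02 for V. It was −0.18 for complex V when scaled to summed FPKM. With a replicate block on the 2 shared numbers, 13 genes were called and none was a subunit, and the median of the subunits was −0.09. The labels name no pairing, and same-numbered libraries deviated with correlations of −0.04 and −0.03. Atpif1 also missed the threshold with a pseudocount of 0.1 (adjusted p = 0.051), without a filter (0.086), without the variance trend (0.098) and with the replicate block (0.092). Taking each subunit's smallest recovered fragment number, the counting error had a median of 8.98%. The median SE from counting was 0.11, against 0.18 from the fit, and it is an upper value where true numbers are multiples.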
